A study of Mus musculus with 33 samples.

Results

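Binding of Gata4 was set against binding of Mef2c in the same kind of cell, a mouse cardiac fibroblast line that had received the reprogramming factors Gata4, Mef2c and Tbx5 together. Both factors were read by ChIP-seq, in which DNA pulled down with an antibody to the factor is sequenced, in 6 libraries for Gata4 and 4 for Mef2c. Gata4 libraries 1 and 6 agreed within sampling noise and were counted as 1 sample, which left 5 Gata4 samples against 4 Mef2c samples, or 9 of the 29 samples in the series. The cells came from hearts of newborn CD-1 mice with a green fluorescent reporter under the alpha myosin heavy chain promoter, and had been immortalised with large T antigen. All groups used here share that line, retroviral delivery, an inhibitor of TGF-beta signalling (SB431542), an inhibitor of Wnt signalling (XAV939) and harvest at day 2 without sorting. The sets placed beside the main pair were Tbx5 in cells with all 3 factors (4 samples), Gata4 alone (4 samples), Mef2c alone (3 samples) and input chromatin of the cells with all 3 factors (6 libraries, counted as 3 samples). "Alone" means cells that received the virus of a single factor. The Gata4 antibody was a goat polyclonal and the Mef2c antibody a rabbit monoclonal, so factor and antibody cannot be told apart in any difference below. Unsorted cells may include cells that took up none or only some of the viruses, and reads of a virus-borne factor cannot be told apart from those of the cell's own copy.

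Gata4 has zinc fingers that recognise GATA sequences, and it can open closed chromatin. Mef2c is a MADS-box protein that binds A/T-rich sites and drives muscle gene programmes. Both are needed for normal heart development, and together with the T-box factor Tbx5 they turn fibroblasts toward a cardiomyocyte-like state.

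Reads were counted in 30815 regions of 201 to 1484 bp, with a median of 234 bp, in mouse build mm9. Totals over these regions were 1369396, 835285, 565058, 352015 and 941173 for Gata4 samples 1 to 5, against 383071, 1191612, 1719411 and 2377616 for Mef2c samples 2 to 5. Pearson correlations of log2 levels were 0.701 to 0.902 among Gata4 samples, 0.749 to 0.928 among Mef2c samples and 0.0682 to 0.286 between the factors, across regions of the same table. The libraries were not uniform within groups. In the 5 regions on chromosome Y, Gata4 libraries 1, 3 and 6 had 138 to 209 CPM, the count scaled to a common library total, and libraries 2, 4 and 5 had 1.06 to 25.6, and inputs split by the same numbers, at 37.5 to 43.1 against 0 to 10.3. Whether these 2 sets of numbers are batches is not stated in the labels, and values within each set are given beside the main count. Gata4 alone sample 4 stood apart from its group: its most-counted 10% of regions held 21.2% of counts, near the 19.0 to 22.2% of the inputs and below the 36.2 to 39.4% of the other Gata4 alone samples. Counts and medians that use the alone samples are therefore given with and without it.

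The 2 factors differed at most regions. Of 26167 regions with enough counts to test, 16513 (63.1%) passed an adjusted p of 0.05 by edgeR's quasi-likelihood test with Benjamini-Hochberg adjustment over all regions tested. Binding was higher for Gata4 at 7596 regions (29%) and higher for Mef2c at 8917 (34.1%). The median log2 fold change (Gata4 over Mef2c) was 1.57 at the Gata4-higher regions and -2.15 at the Mef2c-higher regions. In the Gata4-higher set 2232 regions (29.4%) lay beyond 4-fold, that is 2 on the log2 scale, and in the Mef2c-higher set 5042 (56.5%) did. Every Gata4 sample lay above every Mef2c sample at 5254 of the Gata4-higher regions, and every Gata4 sample lay below every Mef2c sample at 7074 of the Mef2c-higher regions. Over all 26167 regions tested these counts were 5322 and 7136. The regions were called on the same samples, so the separation is a description. The split by direction and the sizes depend on the scaling. Scaling by library totals in place of TMM moved the median difference of all tested regions to 0.66, against 0.08 with TMM, and gave 11066 regions higher for Gata4 and 7353 higher for Mef2c, with median log2 fold changes of 1.81 and -1.76. Within libraries numbered 2, 4 and 5 alone 13785 regions were called, and within libraries 1, 3 and 6, with 1 Mef2c sample assumed to vary like the Gata4 ones, 13144.

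Set against input chromatin, the higher factor was enriched at most of the called regions in the main fit. For Gata4 this depended on single inputs and on the scaling. Over all 30472 regions tested against input, Gata4 was above input at 7085 (23.3%) and Mef2c at 9656 (31.7%), in 1 fit where both factors share the 3 inputs. Of the 7596 Gata4-higher regions, 4469 (58.8%) were above input for Gata4 and 122 (1.61%) for Mef2c. Of the 8917 Mef2c-higher regions, 895 (10.0%) were above input for Gata4 and 8094 (90.8%) for Mef2c. Among the 9654 regions not called, Gata4 was above input at 1720 (17.8%) and Mef2c at 1422 (14.7%). The median log2 ratio to input at Gata4-higher regions was 1.04 for Gata4 and -0.74 for Mef2c, and at Mef2c-higher regions it was -0.25 for Gata4 and 1.92 for Mef2c. At Gata4-higher regions Mef2c was thus below the input level at the median, and 3127 of these regions were called without passing the test of Gata4 over input. The calls and the ratios to input use the same Gata4 and Mef2c samples. A higher factor above input and a lower one below it is favoured by that choice, so these shares and medians are a description. The number of regions above input for Gata4 was 3605 without input sample 1 and 3055 without input sample 2, and library totals gave 3992 for Gata4 and 6150 for Mef2c. For Gata4 each of these totals is below the 4469 found at Gata4-higher regions in the main fit, so the share of 58.8% does not hold in these settings.

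**Figure D1:**
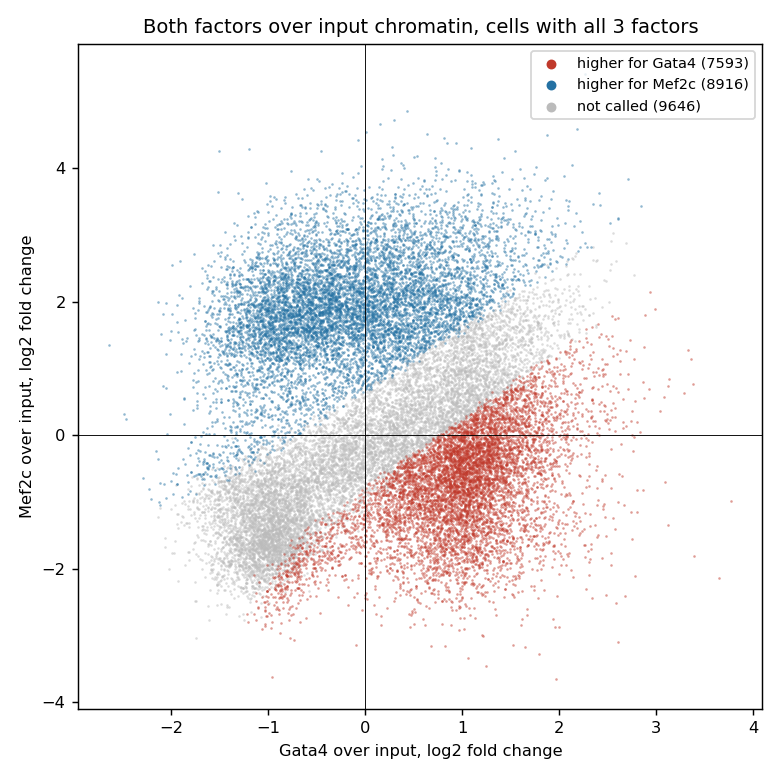
Log2 fold change over input chromatin of Gata4 (x axis) and Mef2c (y axis) in cells with all 3 factors; each point is a region, coloured by the call of Gata4 against Mef2c, with the number of regions plotted in the legend. Mef2c-higher regions sit in a cloud near 1.92 on the y axis and -0.25 on the x axis, Gata4-higher regions near 1.04 on the x axis and -0.74 on the y axis. Both axes share the same inputs, and the calls use the same Gata4 and Mef2c samples as the axes.

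The regions with the largest differences were listed among called regions with a mean level above the median and no overlap between Gata4 and Mef2c samples, so their separation follows from the choice and is given as a description. The most different Gata4-higher regions of this list had Mef2c levels close to 0. Levels are CPM over the regions, scaled by TMM in 1 scaling of all groups. At chr2:170186394-170186763, Gata4 samples 1 to 5 had 105, 64.1, 76.8, 28.4 and 64.2 CPM, and Mef2c samples 2 to 5 had 0, 3.38, 0 and 1.79. The lowest Gata4 sample was several times the highest Mef2c sample, and the log2 fold change was 5.56 ± 0.54 (SE, edgeR adjusted p = 1.83e-09). Inputs there had 17.1, 15.4 and 24.7 CPM, so Mef2c samples lay below input as well as below Gata4.

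A higher level of Gata4 was seen at chr11:104829799-104830074, with 233, 139, 166, 128 and 154 CPM for Gata4 against 13.8, 6.77, 3.75 and 1.19 for Mef2c. The groups were far apart (log2 fold change 5.14 ± 0.44, edgeR adjusted p = 2.51e-10), and Tbx5 in the same cells had 2.48 to 10.3 CPM, in the range of Mef2c. At chr17:86876889-86877168 Gata4 had 122, 67.9, 81.1, 18.9 and 61.4 CPM and Mef2c 2.29, 1.13, 5.63 and 0.595. Gata4 sample 4, the shallowest, was the lowest there, as it was at the chromosome 2 region above. At chr2:103595677-103595916 Gata4 had 89.4, 52.8, 71.1, 61.5 and 90.2 CPM against 2.29, 1.13, 4.69 and 2.38 for Mef2c. At chr14:101120796-101121242 Gata4 had 77.1, 43.4, 56.9, 23.6 and 59.5 CPM against 0, 2.26, 2.82 and 2.98. At these 5 regions Gata4 was 1.97 to 3.39 on the log2 scale over input. The next 5 regions of the list had log2 fold changes of 4.14 to 4.40. A neighbouring pair on chromosome 1, chr1:23539944-23540760 and chr1:23540832-23541209, was among them, with mean levels of 285 ± 162 and 59.2 ± 26.2 CPM for Gata4 and 14.9 ± 7.1 and 3.71 ± 1.73 for Mef2c (SD, n = 5 and 4).

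The most different Mef2c-higher regions, listed by the same rule, were narrow and had high Mef2c levels. At chr1:74795996-74796207, 212 bp wide, Gata4 samples had 2.59, 3.77, 5.69, 7.09 and 4.65 CPM and Mef2c samples 181, 359.7, 309 and 211. The log2 fold change was -5.83 ± 0.35 (SE, edgeR adjusted p = 4.61e-12). Gata4 lay below the inputs (15.7, 9.97 and 12.3 CPM), and Mef2c was 4.26 above them on the log2 scale. Mef2c alone reached 695, 651 and 674 CPM at this region, higher than every Mef2c sample from cells with all 3 factors.

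At chr1:136229684-136229886 Gata4 had 1.94, 2.83, 5.69, 2.36 and 4.65 CPM against 84.8, 229, 238 and 150.1 for Mef2c. At chr7:149281126-149281350 Gata4 had 7.13, 4.71, 0, 7.09 and 5.58 CPM against 142, 258, 219.6 and 213. Mef2c sample 2, the shallowest of its group, was the lowest at both. The same sample was lowest at chr9:49451255-49451526, where Gata4 had 1.94, 8.48, 2.85, 0 and 6.51 CPM and Mef2c 66.5, 153, 257 and 141. At chr12:119186099-119186326 Gata4 had 4.54, 5.66, 8.54, 2.36 and 8.37 CPM and Mef2c 119, 164, 300.3 and 183. The widths of these 4 regions were 203 to 272 bp. The next 5 regions had log2 fold changes of -4.85 to -4.62, and 1 of them lay on chromosome X, at chrX:68152116-68152318.

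**Figure D2:**
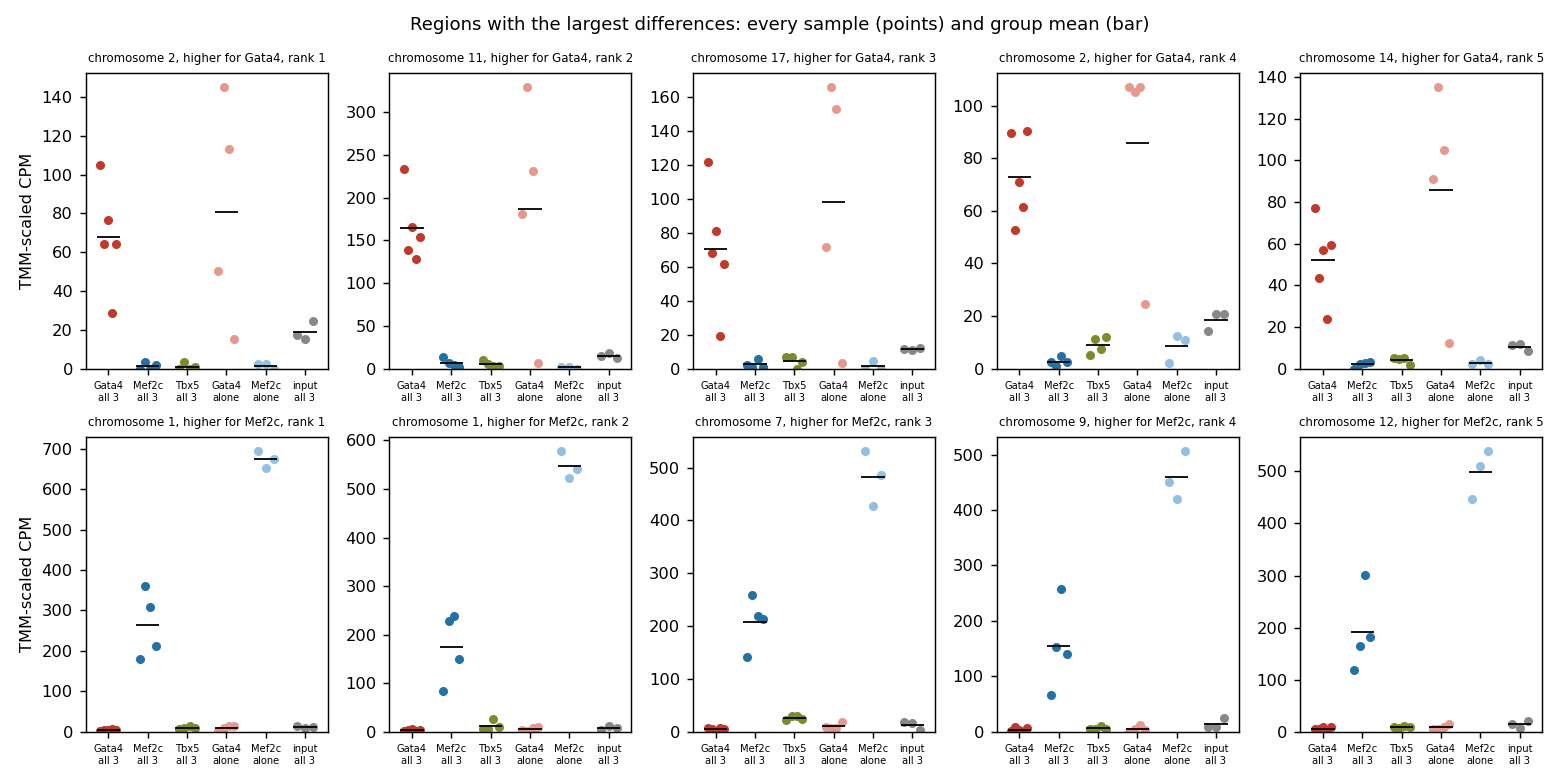
Level of every sample (points, TMM-scaled CPM on linear axes from 0) and group mean (bar) at the 5 regions with the largest difference in each direction among those with a mean level above the median and no overlap between Gata4 and Mef2c samples with all 3 factors, for Gata4, Mef2c and Tbx5 with all 3 factors, for Gata4 and Mef2c alone and for input. Mef2c alone lies above Mef2c with all 3 factors in all 5 lower panels, and Gata4 alone sample 4, the fourth point of its group, lies far below the other Gata4 alone samples in all 5 upper panels.

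At the most heavily read regions the difference was one of degree. The 5 Gata4-higher regions with the highest mean level were above input for both factors, with Gata4 2.10 to 2.48 and Mef2c 1.17 to 1.66 over input on the log2 scale. At chr8:35160316-35161324 Gata4 had 423, 304, 283, 236 and 391 CPM against 124, 183, 199.9 and 257 for Mef2c (log2 fold change 0.87 ± 0.23, edgeR adjusted p = 0.00128). The groups overlap by Gata4 sample 4 and Mef2c sample 5, and Tbx5 was above both, at 491 to 633 CPM. The others were chr15:58886212-58886871, chr6:50840856-50841467, chr11:85617565-85618121 and chr3:121798927-121799423, with log2 fold changes of 0.64 to 1.04. The last had the weakest call (0.67 ± 0.28, edgeR adjusted p = 0.0353), which was lost without Gata4 sample 4 (0.60), Gata4 sample 5 (0.68), Mef2c sample 2 (0.54) or Mef2c sample 3 (0.61), with adjusted p of 0.0538 to 0.101. Within libraries 1, 3 and 6 none of the 5 passed, with values of 0.63 to 1.08, and within libraries 2, 4 and 5 the calls at chr11:85617565-85618121 (0.74) and chr3:121798927-121799423 (0.69) were lost.

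The 5 Mef2c-higher regions with the highest mean level were also above input for both factors. At chr16:43456604-43457112 Gata4 had 108, 66.9, 76.8, 118 and 87.4 CPM against 599, 812, 715 and 512 for Mef2c, with inputs at 31.4, 36.3 and 32.9. Here Gata4 itself was 1.43 over input on the log2 scale, and Mef2c was several times higher again (log2 fold change -2.78 ± 0.22, edgeR adjusted p = 1.09e-10). At chr3:151805873-151806601 Gata4 had 217, 132, 155, 201 and 216 CPM and Mef2c 631, 736, 719.8 and 496. At chr9:48794690-48795761 Gata4 had 311, 201, 222, 296 and 224 CPM and Mef2c 394, 803, 702 and 576. The groups did not overlap at these 3 regions or at chr19:36194554-36195041. The remaining region, chr15:73166660-73167421, ranked first of the 5 by mean log2 level and had a weak call, at 402, 286, 287, 378 and 396 CPM for Gata4 and 291, 643, 684 and 583 for Mef2c. Its log2 fold change was -0.56 ± 0.21 (edgeR adjusted p = 0.0216). The call was lost without Gata4 sample 2 (-0.34) or 3 (-0.34), or without Mef2c sample 3 (-0.39), 4 (-0.35) or 5 (-0.46). It was also lost with DESeq2's Wald test (-0.52, adjusted p = 0.0659), with no filter on low counts (-0.50), within libraries 2, 4 and 5 (-0.33), within libraries 1, 3 and 6 (-0.90) and with library totals, where the value was 0.03.

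Some regions were read at like levels by both factors. At 2992 regions not called, the 95% interval of the log2 fold change lay inside -1 to 1, so a difference beyond 2-fold was outside it. Of these, 775 were above input for both factors and 2011 for neither, in comparisons that share the inputs. Over all 26167 regions tested between the factors, 2161 were above input for both and 11606 for neither. At the other 6662 regions not called the interval reached further, and no difference was detectable at this depth. At chr6:91495706-91496623 Gata4 had 428, 230, 297, 279 and 308 CPM and Mef2c 135, 355, 437 and 362, with inputs at 78.5, 63.5 and 57.6. Both were well above input (2.21 for Gata4 and 2.11 for Mef2c on the log2 scale), and the difference was 0.03, with an interval of -0.46 to 0.52. At chr19:36332582-36333072 Gata4 had 334, 236, 236, 277 and 286 CPM against 232, 385, 349 and 280.5 for Mef2c, and the log2 difference was -0.10. At chrX:166417917-166418386 both factors were high, at 251 to 572 CPM for Gata4 and 379 to 659.7 for Mef2c, but so were the inputs, at 189 to 321 CPM.

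The other shared regions stood close to a call. At chr10:93212078-93213251 the log2 difference was -0.42 ± 0.21 (edgeR adjusted p = 0.0901) and, with the replicate number as a block, -0.47 (adjusted p = 0.0349). At chr3:151692117-151692871 it was 0.46 ± 0.24 (edgeR adjusted p = 0.0915). There it passed the threshold without Gata4 sample 2 (0.68), Gata4 sample 3 (0.64) or Mef2c sample 4 (0.73), and with Gata4 libraries 1 and 6 as 2 samples (0.60). With library totals, chr6:91495706-91496623 (0.64), chr19:36332582-36333072 (0.46) and chr3:151692117-151692871 (1.06) were called higher for Gata4.

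Called regions of opposite direction could lie side by side. There were 859 pairs of called regions with centres at most 5 kb apart in which 1 was higher for Gata4 and 1 for Mef2c. These include pairs that are not adjacent, and the total of called pairs at that distance was not counted. Among adjacent regions both called, directions were opposite in 211 of 817 pairs up to 1 kb apart and in 493 of 1161 at 1 to 5 kb. At any distance this held for 4858 of 10628 adjacent pairs. On chromosome 2, chr2:32443623-32443825 and chr2:32444159-32444382 have centres 0.546 kb apart. At the first, Gata4 had 7.13, 12.3, 17.1, 7.09 and 12.1 CPM against 48.2, 165, 114 and 132 for Mef2c (log2 fold change -3.27 ± 0.36, edgeR adjusted p = 1.36e-08). At the second, Gata4 had 205, 130.1, 144, 182 and 162 CPM against 9.17, 15.8, 16 and 10.7 for Mef2c (3.74 ± 0.31, edgeR adjusted p = 1.63e-10). The order of the factors thus reversed over less than 1 kb, with no overlap of samples at either region. A pair on chromosome 18, chr18:61226605-61226994 and chr18:61227308-61227510, was 0.61 kb apart and had log2 fold changes of 3.08 ± 0.36 and -3.40 ± 0.30. A pair on chromosome 9, chr9:14839728-14839937 and chr9:14844398-14844619, was 4.68 kb apart and had 3.72 ± 0.47 and -3.62 ± 0.41.

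Such pairs were nonetheless the minority at short range. Among adjacent regions both called, 606 of 817 pairs (74.2%) with centres up to 1 kb apart had the same direction. The share was 57.5% at 1 to 5 kb and 50.8 to 52.8% in the bins beyond 5 kb. Fragment lengths of single libraries were not analysed here, and whether neighbouring regions share fragments was not tested. The share of calls also changed with region width. Of the 2698 tested regions of 201 bp, the minimum width, 11.6% were higher for Gata4 and 18.3% for Mef2c. At 202 to 250 bp these shares were 29.4% for Gata4 and 41.2% for Mef2c, and at 500 bp or more they were 37.0% for Gata4 and 26.4% for Mef2c. With TMM scaling Mef2c-higher calls were thus the more frequent ones at 202 to 250 bp and Gata4-higher calls in the widest regions. With library totals Gata4-higher calls were the more frequent ones at both widths, at 39.9% against 36.8% for Mef2c at 202 to 250 bp and 58.1% against 17.8% for Mef2c at 500 bp or more. How the regions and their widths were set is not given in the sources used here.

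**Figure D3:**
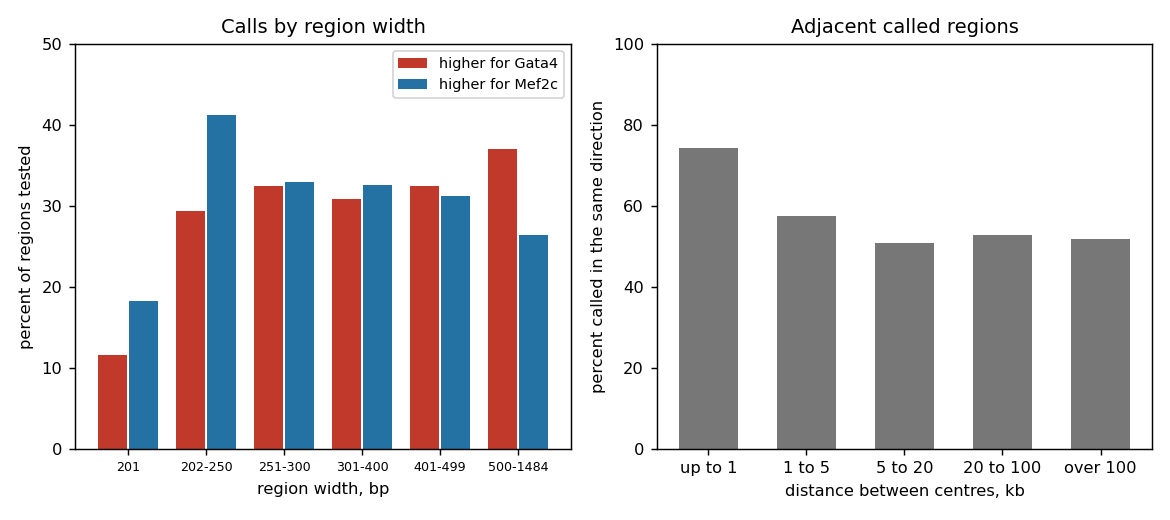
Left, percent of tested regions called higher for Gata4 and higher for Mef2c by region width in bp; right, percent of adjacent called pairs that share a direction, by distance between centres in kb. Mef2c-higher calls exceed Gata4-higher calls most at 202 to 250 bp (29.4% for Gata4 and 41.2% for Mef2c), Gata4-higher calls exceed in the bin just under 500 bp (32.5% against 31.2% for Mef2c) and from 500 bp on with this TMM scaling (with library totals they exceed in every bin), and the same-direction share is 74.2% up to 1 kb.

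The share of each sample's counts in wide regions, which does not depend on the scaling between samples, was also compared. Regions of 500 bp or more held 15.9, 13.2, 13.5, 13.1 and 14.2% of counts in Gata4 samples 1 to 5, against 10.3, 11.0, 10.4 and 10.9% in Mef2c samples 2 to 5. The means were 14.0 ± 1.16% for Gata4 and 10.7 ± 0.34% for Mef2c (SD, n = 5 and 4), with inputs at 9.17 to 9.42%. Counts were more concentrated for Mef2c. The most-counted 10% of regions held 32.5 ± 2.74% of counts in Gata4 samples and 41.4 ± 3.59% in Mef2c samples. The effective number of regions, the inverse of the summed squared shares of counts, was 15870 ± 1900 for Gata4 and 11410 ± 1310 for Mef2c. Chromosome X held 1.26 ± 0.05% of counts for Gata4 and 1.70 ± 0.21% for Mef2c, against 1.08 to 1.09% in the inputs. On chromosome X 27.5% of the 484 tested regions were higher for Gata4 and 51.0% for Mef2c, where the Mef2c-higher share of single autosomes ran from 26.4 to 40.9%. With library totals 36.4% of the chromosome X regions were higher for Gata4 and 46.1% for Mef2c, against 21.8 to 34.3% for Mef2c on single autosomes. The groups did not overlap in any of the 4 measures, each with a two-sided exact permutation p of 0.0159, the smallest that 5 against 4 samples allow, and 0.0159 adjusted over the 4. This test takes the 9 samples as unpaired. Within the 4 pairs of samples that share a number, Gata4 was on the same side of Mef2c in 4 of 4 pairs for each measure, and the exact two-sided permutation p was 0.125, the smallest that 4 pairs allow. Values differed little when all samples were thinned to 352015 counts.

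When each factor was expressed alone, the same contrast, read in separate libraries, largely kept its direction. Alone, 21509 regions could be tested and 17871 (83.1%) were called, 9727 (45.2%) higher for Gata4 and 8144 (37.9%) higher for Mef2c; without Gata4 alone sample 4 the calls were 18575 of 21376, 9775 for Gata4 and 8800 for Mef2c. Of the 7596 regions higher for Gata4 with all 3 factors, 6309 could be tested alone. Of those tested, 6014 (95.3%) were again higher for Gata4, none higher for Mef2c and 295 not called. Of the regions higher for Mef2c with all 3 factors, 7494 could be tested alone, and 6712 (89.6%) were again higher for Mef2c, 75 were higher for Gata4 and 707 not called. The shares of 95.3% and 89.6% stand against the 45.2% and 37.9% of all regions tested alone, which passed the same filter. Without Gata4 alone sample 4 they were 96.6% for Gata4 and 93.1% for Mef2c, against 45.7% and 41.2% of all regions. With library totals, which gave 12016 regions higher for Gata4 alone and 6219 higher for Mef2c, they were 97.6% and 82.1%, against 55.9% and 28.9%.

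The log2 difference between the factors had a smaller median size in cells with all 3 factors than alone. These sizes include noise, whose part in either setting was not tested. Over the 19897 regions tested in both settings, the median size of the log2 difference was 1.43 with all 3 factors and 2.31 alone, and 83.2% of regions had the smaller size with all 3 factors. Without Gata4 alone sample 4 the medians were 1.43 with all 3 factors and 2.47 alone, and the share was 85.2%. With library totals they were 1.54 and 2.51, and the share was 84.1%. Among regions called the same way in both settings, the Gata4-higher ones had a median of 1.67 with all 3 factors and 2.65 alone, and the Mef2c-higher ones -2.37 with all 3 factors and -3.15 alone. Without Gata4 alone sample 4 the medians were 1.67 with all 3 factors and 2.71 alone for Gata4-higher regions, and -2.33 with all 3 factors and -3.49 alone for Mef2c-higher ones. The size was smaller with all 3 factors at 90.7% of the Gata4-higher and 82.7% of the Mef2c-higher regions of this kind. Without Gata4 alone sample 4 these shares were 90.5% and 87.0%, and with library totals 96.0% and 78.8%. Tested region by region with TMM scaling, the change was called less often. Of 7595 Gata4-higher regions, 208 (2.74%) moved toward Mef2c and 25 (0.33%) toward Gata4. Of 8917 Mef2c-higher regions, 1604 (18.0%) moved toward Gata4 and 408 (4.58%) toward Mef2c. At 96.9% and 77.4% of these sets no change was called, by a test that recovered 20% of simulated 4-fold changes. Of the 6094 regions not called with all 3 factors that could be tested alone, 2699 (44.3%) were higher for Gata4 alone and 905 (14.9%) higher for Mef2c alone; without that sample these were 2807 (46.6%) and 1169 (19.4%) of 6020.

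**Figure D4:**
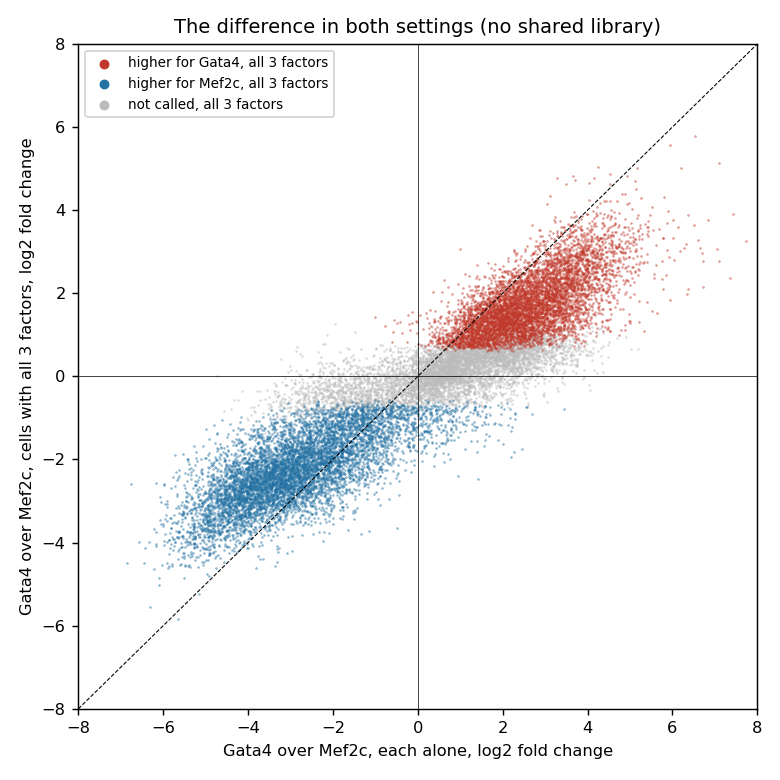
Log2 fold change of Gata4 over Mef2c in cells with all 3 factors (y axis) against the same contrast with each factor alone (x axis); points are regions tested in both settings, coloured by the call with all 3 factors, and the dashed line marks equal values. Most red and blue points lie between the dashed line and the horizontal axis, that is, with smaller differences with all 3 factors, and the lower right holds the regions higher for Mef2c with all 3 factors and for Gata4 alone.

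The levels of whole sets were compared sample by sample. Over the 7596 Gata4-higher regions, the mean log2 CPM was 5.17 to 5.57 in the 5 Gata4 samples with all 3 factors and 5.40 to 5.56 in Gata4 alone samples 1 to 3, against 4.49 in Gata4 alone sample 4. Mef2c samples had 3.90 to 4.02 there with all 3 factors and 3.52 to 3.58 alone, and inputs 4.42 to 4.49. Over the 8917 Mef2c-higher regions, Mef2c had 5.60, 6.41, 6.79 and 6.54 with all 3 factors, where sample 2 was the lowest, and 6.67 to 6.78 alone. This order depends on the scaling: with library totals Mef2c had 5.79 to 6.1 there with all 3 factors and 5.69 to 5.77 alone. With TMM, Gata4 had 4.18 to 4.55 there with all 3 factors and 3.86 to 4.03 in Gata4 alone samples 1 to 3, and inputs 4.48 to 4.51. The Mef2c level at Gata4-higher regions and the Gata4 level at Mef2c-higher regions were thus higher with all 3 factors than alone in every sample other than Gata4 alone sample 4, and with library totals too. Because these sets were called on the samples with all 3 factors, their levels in those samples are a description. Tbx5 in cells with all 3 factors had 4.71 to 5.00 over the Gata4-higher regions and 4.51 to 4.86 over the Mef2c-higher regions.

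**Figure D5:**
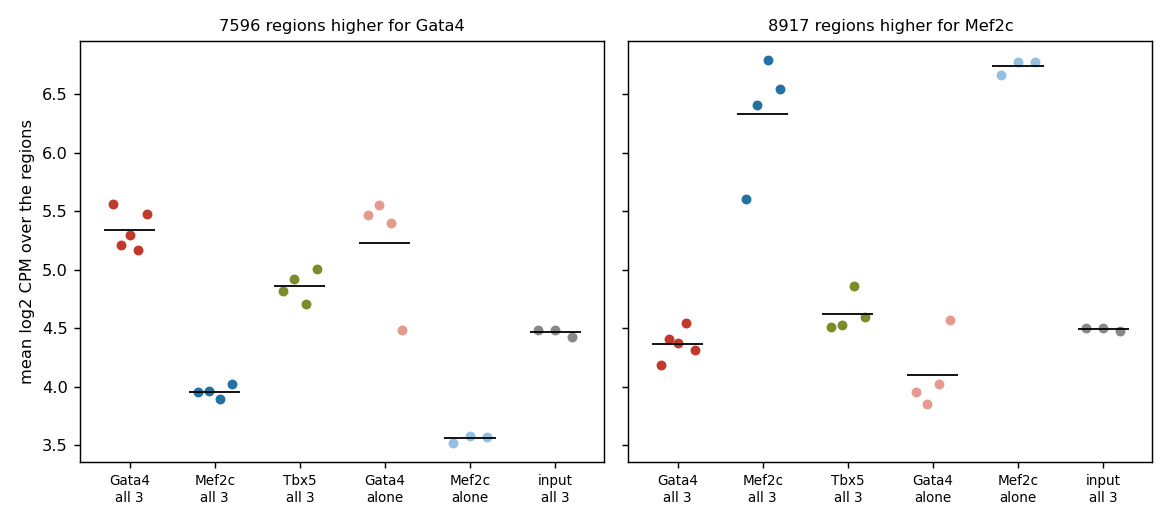
Mean log2 CPM over the Gata4-higher regions (left) and the Mef2c-higher regions (right) in each sample (points) with the group mean (bar); the y axis does not start at 0. Mef2c lies below input in the left panel in both settings, at 3.90 to 4.02 with all 3 factors, and Gata4 alone sample 4 lies at the level of the inputs in both panels.

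The change of the Gata4-Mef2c difference between the settings was tested directly. In 30222 regions, 3610 (11.9%) had a different contrast with all 3 factors than alone, 2400 (7.94%) shifted toward Gata4 and 1210 (4%) toward Mef2c. This count depends on the alone samples, on the scaling and on pairing by number. With the replicate number as a block in each setting it was 9484, although the numbers of the alone samples do not pair them. Without Gata4 alone sample 4 it was 6768, without Gata4 alone sample 1 or 2 it was 1921 or 2310, and without Mef2c alone sample 1 or 3 it was 1985 or 2278. With library totals 1036 regions shifted toward Gata4 and 3293 toward Mef2c, so the balance of the directions turns with the scaling. The clearest named shift toward Gata4 was at chr16:43456604-43457112 (2.74 ± 0.44, edgeR adjusted p = 0.000313). Gata4 had 66.9 to 118 CPM there with all 3 factors, against 17.5, 11.5, 32.5 and 36.7 alone, and Mef2c had 512 to 812 with all 3 factors, against 1045, 1276 and 1164 alone. With TMM scaling Gata4 was higher and Mef2c lower there with all 3 factors than alone, with no overlap between settings for either factor. The order for Mef2c rests on that scaling, whose factors were 0.62 to 1.14 for Mef2c samples with all 3 factors and 0.49 to 0.51 alone. At chr9:48794690-48795761 the shift was 1.83 ± 0.40 (edgeR adjusted p = 0.00295), where Gata4 had 201 to 311 CPM with all 3 factors and 52.4 to 86 alone.

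At 75 regions the direction turned between the settings, and all 75 were higher for Mef2c with all 3 factors and higher for Gata4 alone. The interaction passed at 66 of them, against 11.9% of all regions tested for it. Opposite calls on the same samples make such a pass likely, so this count is a description. Without Gata4 alone sample 4 the direction turned at 78 regions, 76 of them higher for Mef2c with all 3 factors. With library totals it turned at 102, 92 of them higher for Mef2c with all 3 factors. At chr6:143086203-143086644 Gata4 had 45.4, 51.8, 37, 63.8 and 42.8 CPM and Mef2c 122, 162, 213 and 186 with all 3 factors. Alone, Gata4 had 19.4, 18.1, 15.3 and 52 CPM there and Mef2c 8.55, 2.09 and 6.48. Mef2c was far above input with all 3 factors and below the inputs (18.6, 38.1 and 37 CPM) alone, and the interaction was -3.92 ± 0.67 (edgeR adjusted p = 0.000346). Tbx5 had 118 to 183 CPM at this region in cells with all 3 factors.

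The 2 others with the largest shifts differed in their Tbx5 level. At chr1:193686811-193687020 Gata4 had 20.1, 10.4, 17.1, 9.46 and 17.7 CPM and Mef2c 41.3, 105, 22.5 and 81 with all 3 factors, and alone Gata4 had 21.3, 31.3, 19.1 and 21.4 and Mef2c 2.14, 10.4 and 6.48. Tbx5 was near 0 there, at 3.72 to 7.06 CPM with all 3 factors. At chr15:58105947-58106150 Gata4 had 30.5, 41.5, 24.2, 26 and 37.2 CPM and Mef2c 50.4, 44, 49.7 and 91.7 with all 3 factors, and Tbx5 had 48.3 to 82.8. Alone, Gata4 had 31, 13.2, 21 and 42.9 CPM at that region and Mef2c 2.14, 0 and 6.48. The difference with all 3 factors was small there (-0.78 ± 0.31, edgeR adjusted p = 0.0275) and lost its call without Gata4 sample 1 (-0.70), 2 (-0.74), 3 (-0.55) or 4 (-0.72) or Mef2c sample 5 (-0.41), and likewise with library totals (-0.22), with no filter on low counts (-0.73), within libraries 2, 4 and 5 (-0.63) and within libraries 1, 3 and 6 (-0.66). The interaction, at -3.99 ± 0.77 (edgeR adjusted p = 0.000994), passed in all 21 alternatives, with values from -5.28 to -3.42.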

How the data were processed

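The authors deposited whole-number read counts for each region and library as a single table, with no normalisation. The submitters' processing notes name FastQC, Bowtie2 2.2.4, featureCounts and the mm9 build. How reads were filtered and how regions were selected is not given in the sources used here. Gene names and sequence motifs were not analysed here, because the annotation at hand is of another build.

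Libraries whose counts agreed within sampling noise (chi-square p of at least 0.05 where other pairs of the group differed) were summed: Gata4 1 and 6 (p = 0.0785), inputs 1 and 3, and inputs 2, 4 and 5. Groups were compared with edgeR 4.0.16 in R 4.3.3 (glmQLFit with robust estimation, glmQLFTest, TMM scaling, filter with minimum count 10 and minimum total 15), with Benjamini-Hochberg adjustment and a threshold of 0.05. The SE is the log2 fold change over the square root of F, and intervals are at the 95% level. All tests were two-sided. Scripts were tested on simulated counts with 200 changed regions, far fewer than the calls in the data. Of 2-fold changes 17% were recovered in the main comparison, 5% alone and 1% in the change between settings. For 4-fold changes these shares were 87%, 68% and 20%. A region not called can therefore still differ. log2 CPM used a prior count of 2. The labels call the libraries biological replicates. edgeR weights samples by their depth, 352015 to 2377616 counts in the main pair.

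Replicate numbers 2 to 5 were taken to pair Gata4 and Mef2c samples with all 3 factors, since deviations from the group means of same-numbered samples correlated (r = 0.201, 0.113, 0.401 and 0.345). Samples of unlike number had r of -0.214 to 0.193, and the value of number 3 lay inside that range. For the alone samples, same-numbered deviations did not correlate (-0.0181, 0.0242 and 0.00865).

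Regions named were, among those called, the 10 most different regions in each direction by log2 fold change (mean level above the median, samples not overlapping) and the 5 with the highest mean level in each direction. To these were added the 5 shared regions with the highest level, the 3 opposite neighbours with the largest smaller difference, and the 3 regions turning direction with the largest interaction. The comparison and these lists were chosen with earlier results of these data known. Alternatives were DESeq2 1.42.0 (Wald test and size factors), library totals, no filter, a replicate block, 1 fit of all groups, the 2 sets of library numbers and each sample left out.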

Additional observations from a re-analysis of the deposited data

Results flagged for a closer look

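A single sample stood far from the rest of its group in 3 of 96 groups of samples tested, where chance flags about 1 in 20. The groups were tested at the named regions and for the per-sample measures. Mef2c sample 2 had 13.8 CPM at chr3:123856439-123856898, against 3.38 to 4.76 in the other Mef2c samples. It had 98.6 CPM at chr18:61227308-61227510, against 165 to 173. Mef2c sample 5 had 91.7 CPM at chr15:58105947-58106150, against 44 to 50.4.

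The Gata4-Mef2c difference itself differed between cells with all 3 factors and single-factor cells at 2400 regions toward Gata4 and 1210 toward Mef2c. Among named regions, the interaction on the log2 scale was 2.741 at chr16:43456604-43457112, 1.831 at chr9:48794690-48795761, -3.987 at chr15:58105947-58106150, -3.921 at chr6:143086203-143086644 and -3.88 at chr1:193686811-193687020. These 5 passed in all 21 alternatives tried.

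At chr14:106411242-106411466 (1.896, edgeR adjusted p = 0.0425) the call was lost in 14 of 21 alternatives, without any of Gata4 samples 2 to 5, Mef2c samples 2, 3 and 5, Gata4 alone samples 1 and 2 or Mef2c alone samples 1 to 3 among them. At chr8:35160316-35161324 (-1.362, edgeR adjusted p = 0.0485) it was lost in 11, without Gata4 samples 2 and 3, Mef2c samples 3 and 5, Gata4 alone samples 1 and 2 or any Mef2c alone sample among them. At chr9:14844398-14844619 (2.033, edgeR adjusted p = 0.0288) it was lost in 9, without Gata4 samples 3 and 4, Mef2c sample 5, Gata4 alone samples 1 to 3 or Mef2c alone samples 1 and 3 among them. Values over these alternatives ran from 1.32 to 2.62 at chr14:106411242-106411466, from -1.9 to -1.21 at chr8:35160316-35161324 and from 1.51 to 2.61 at chr9:14844398-14844619.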

How the results depend on the processing

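The count of regions that differ between Gata4 and Mef2c with all 3 factors (16513) stayed within 1.5 times under every alternative tried, from 13144 within libraries 1, 3 and 6 to 18419 with library totals, and from 15579 to 18128 with a sample left out; DESeq2's Wald test gave 16197 and the replicate block 17255. The 20 regions listed for their differences (mean level above the median, samples not overlapping) and the 6 opposite neighbours kept direction and call in all alternatives. With library totals the direction turned at chr15:73166660-73167421 (0.0289) and chr19:36332582-36333072 (0.46). It could also turn at regions called in neither case, for example chr10:93212078-93213251 (0.148). Regions above input fell to 3992 for Gata4 and 6150 for Mef2c with this scaling, and the cause was not tested. Samples left out gave 3055 to 8081 regions above input for Gata4 and 1921 to 6768 regions for the change between settings. The replicate block, where the numbers of the alone samples do not pair them, gave 9484 for that change. Among the named regions the block changed no call of Gata4 against Mef2c with all 3 factors other than that at chr10:93212078-93213251. Within libraries 2, 4 and 5, where 3 against 3 samples cannot go below an exact permutation p of 0.1, the 4 per-sample differences (Gata4 minus Mef2c) were -8.249 percentage points in the most-counted 10% of regions, 4351 effective regions, -0.4491 points on chromosome X and 2.952 points in regions of 500 bp or more; within the 4 pairs by number (replicate block, added after seeing the data), where p cannot go below 0.125, they were -9.74, 5037, -0.4555 and 2.845. Alternatives on the alone samples (library totals in both settings, and leaving out Gata4 alone sample 4) were partly chosen after seeing the data. Depth limits regions of low level: half-widths of the 95% interval had a median of 0.99 on the log2 scale in the lowest of 5 equal bins by level and 0.62 in the highest.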

Other observations

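The direction of the calls followed the mean level over both factors. In the lowest of 5 equal bins of tested regions by mean log2 CPM 17.0% were higher for Gata4 and 3.5% for Mef2c, in the middle bin 42.5% for Gata4 and 33.3% for Mef2c, and in the highest bin 14.7% for Gata4 and 66.6% for Mef2c. The mean level enters both the ranking and the call, so these shares are a description. Among autosomes, chromosome 17 had the highest share of Gata4-higher regions (35.1%) and chromosome 16 the lowest (25.8%), while the Mef2c-higher share was lowest on chromosome 8 (26.4%) and highest on chromosome 16 (40.9%).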
